A study of Homo sapiens with 9 samples.

Results

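The signal of type I interferon reaches the nucleus through a short chain of proteins. Here 9 genes of this pathway are described in HK1 cells, an established human line of nasopharyngeal carcinoma. They are the receptor chain IFNAR1, the kinases JAK1 and TYK2, the transcription factors STAT2 and IRF9, and the interferon regulatory factors IRF1, IRF2, IRF3 and IRF7. They were taken as a list of names of pathway genes, with no cutoff on a measured value. Earlier results of these data were known when the list was drawn up. Each was found under its Ensembl identifier in all 9 files, which list 58336 genes with such identifiers. Of these, 13763 genes reached at least 1 FPKM (fragments per kilobase of transcript, scaled to the mapped fragments of the library) in at least 3 libraries and were tested, and all 9 of the chosen genes were among them.

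HK1 cells were sequenced 48 h after transfection at 100 nM with control siRNA, E2F1 siRNA or E2F3 siRNA, and 3 libraries were made of each kind. E2F1 and E2F3 are transcription factors that bind the retinoblastoma protein and are known for driving genes of S phase. All cells received an siRNA and no untransfected cells were analysed here. The sources used here give no siRNA sequence, so each knockdown stands for the siRNA reagent that was used. Nothing in the labels ties the libraries of a group to separate cultures or to 1 culture, and p-values then measure only the spread between these libraries, which may be technical.

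When type I interferon binds IFNAR1 and its partner IFNAR2, the kinases TYK2 and JAK1, which sit on the tails of the receptor, phosphorylate STAT proteins, STAT2 among them. These join IRF9 in a complex named ISGF3, which binds the interferon-stimulated response element (ISRE) of antiviral genes. IRF3 and IRF7 act earlier, since kinases below the sensors of foreign nucleic acid activate them to switch on interferon genes. IRF1 is an activator that is itself induced by interferons, and IRF2 binds the same DNA element as IRF1 and is best known as its antagonist. In epithelial cells this machinery is present before any infection and keeps a basal level of interferon-stimulated transcripts.

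Each siRNA lowered its target. E2F1 was at 19.85, 19.53 and 20.2 FPKM in control and at 7.17, 7.95 and 7.33 after E2F1 siRNA (log2 change -1.30, SE 0.06; limma adjusted p = 3.71e-07), and E2F3 was at 24.74, 27.17 and 24.42 FPKM in control and at 12.61, 10.52 and 11.02 after E2F3 siRNA (log2 change -1.10, SE 0.07; adjusted p = 3.57e-06). All 7 epithelial markers checked, such as KRT5, KRT17 and EPCAM, were above 1 FPKM in every group. Their summed level was 1923.81 to 1957.57 FPKM in control, 1318.27 to 1400.48 after E2F1 siRNA and 1246.45 to 1328.44 after E2F3 siRNA. KRT17, the highest, was at 740.17 to 809.66, 387.06 to 425.63 and 348.6 to 401.38 FPKM in the same order. EPCAM overlapped with control, at 170.12 to 182.25, 179.02 to 203.1 and 167.03 to 187.81 FPKM. All other markers of the list were below every control library in all knockdown libraries. The part of this summed shift in the results below was not tested. Of the 7 leukocyte markers, PTPRC, which defines the lineage, stayed at or below 0.46 FPKM, and LYZ was at 0.73, 1.0 and 7.49 FPKM in control, so the summed level was 0.92 to 8.79 FPKM in control, 1.29 to 1.46 after E2F1 siRNA and 0.84 to 1.27 after E2F3 siRNA. The summed level of 5 fibroblast markers was 13.69 to 15.14 FPKM in control, 17.76 to 20.5 after E2F1 siRNA and 13.9 to 16.65 after E2F3 siRNA, most of it COL1A1. LILRA4 and CLEC4C, markers of plasmacytoid dendritic cells, were listed at 0 in all 9 libraries, while the other 2 markers of that list, TCF4 and IL3RA, reached 3.52 and 0.44 FPKM, and its summed level was 1.97 to 3.29 FPKM in control, 2.62 to 3.76 after E2F1 siRNA and 1.88 to 3.38 after E2F3 siRNA. The absolute depth is unknown, but steps in the FPKM of single-exon genes put the libraries at 0.855 to 1.239 times the depth of the first control library.

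In control cells the 9 genes spanned a wide range of levels, from IRF3 at 77.8 ± 6.87 FPKM to IRF7 at 2.83 ± 0.283 FPKM (mean ± SD, n = 3 libraries, here and below). FPKM is scaled to transcript length, so these levels can be set roughly beside each other. IRF1, IRF3 and IRF9 share exon bases with other genes, as given below, which can shift their levels. IRF3 stood at the 89.5th percentile of the tested genes in control and IRF7 at the 19.4th. Below IRF3 came IRF1 at 46.1 ± 0.909, TYK2 at 42.4 ± 3.05, IRF2 at 30.6 ± 3.32, JAK1 at 27.1 ± 0.437, STAT2 at 25.4 ± 0.854, IFNAR1 at 20.2 ± 0.850 and IRF9 at 14.1 ± 1.98 FPKM. The ranges of IRF1 and TYK2 overlapped, as did those of IRF2 and JAK1, while every other neighbour in this order was apart. After E2F1 siRNA, STAT2 dropped below IFNAR1 in this order (46.2nd against 62.0th percentile), with ranges apart. It also stood below IFNAR1 after E2F3 siRNA (57.9th against 60.2nd percentile), with ranges that overlapped. After E2F3 siRNA, IRF1 had moved from place 2 to place 4, with a range that overlapped that of JAK1.

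**Figure D1:**
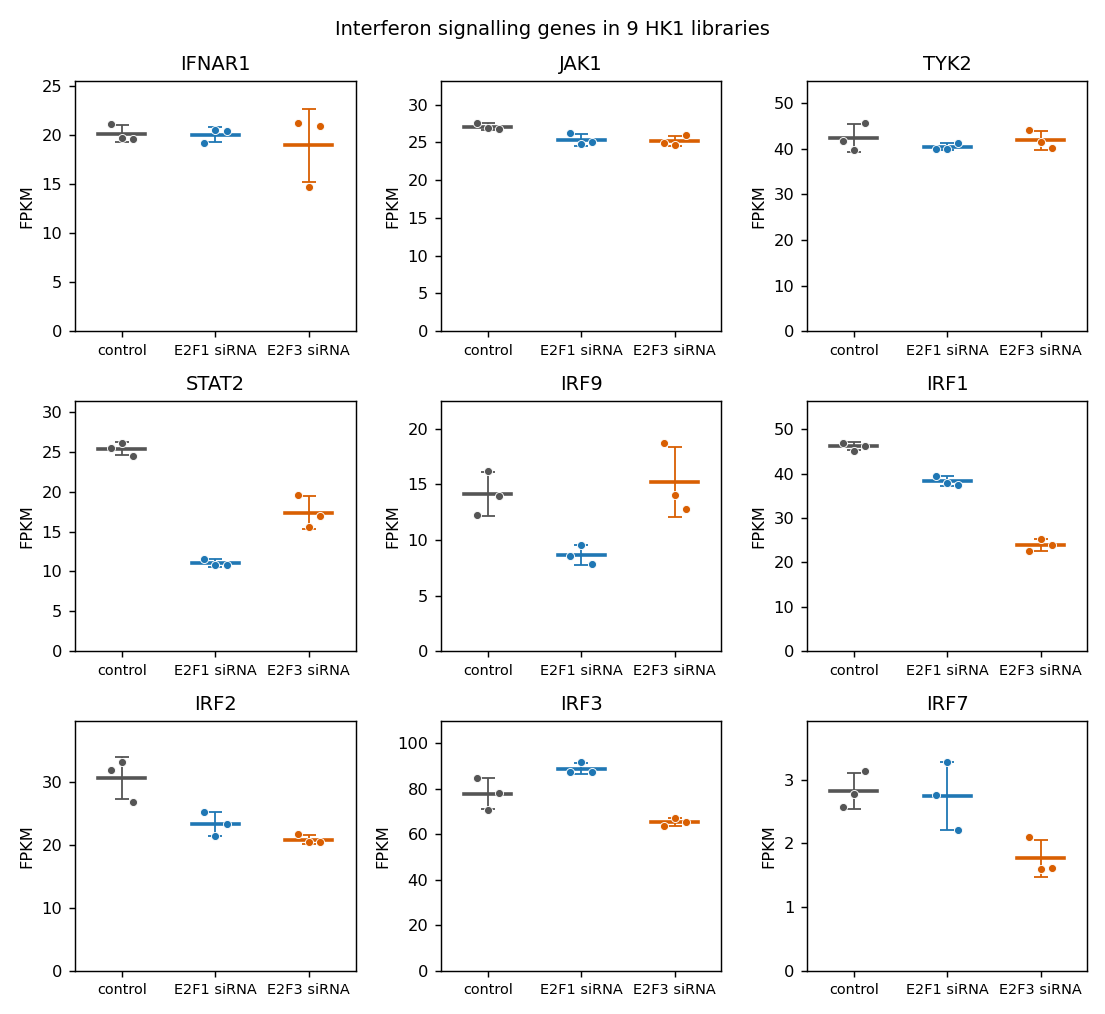
FPKM of each of the 9 genes by group, with points for the 3 libraries, thick bars for their mean and thin bars for 1 SD, on linear axes from 0. STAT2, IRF1, IRF2 and JAK1 lie below every control library in all 6 knockdown libraries, though JAK1 did not pass the test against control. IRF9 does so in the 3 libraries of E2F1 siRNA, and IFNAR1 and TYK2 overlap with control in both knockdowns.

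In each comparison with control, 5 of the 9 genes passed the test. After E2F1 siRNA 4 of the 9 fell (STAT2, IRF9, IRF2 and IRF1), IRF3 rose, and 4 did not pass the test. After E2F3 siRNA 5 of the 9 fell (IRF1, STAT2, IRF2, IRF7 and IRF3), none rose, and 4 did not pass. Of all genes tested, 37.8% were called after E2F1 siRNA (20.5% higher and 17.3% lower). After E2F3 siRNA 37.6% were called (21.1% higher and 16.5% lower), with 2910 genes higher and 2267 lower, a split that turned to 2257 and 2791 with RLE scaling (the median of ratios between libraries). With such large shares of all genes called, 55.6% of 9 genes called is a description of these genes and sets them apart from no others. The groups did not overlap for 6 of the 9 genes after E2F1 siRNA (5 lower and 1 higher), where 50.3% of all genes tested were apart (22.6% lower and 27.7% higher). After E2F3 siRNA 6 of the 9 were apart, all of them lower, where 49.5% of all genes were (21.0% lower and 28.6% higher). The median change of the 9 genes was -0.09 on the log2(FPKM + 1) scale after E2F1 siRNA and -0.24 after E2F3 siRNA, and that of all tested genes was 0.03 and 0.04. Both comparisons use the same 3 control libraries, so their values for a gene are given side by side and not as independent evidence. In bulk RNA, fewer cells that make a transcript and less transcript per cell cannot be told apart.

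**Figure D2:**
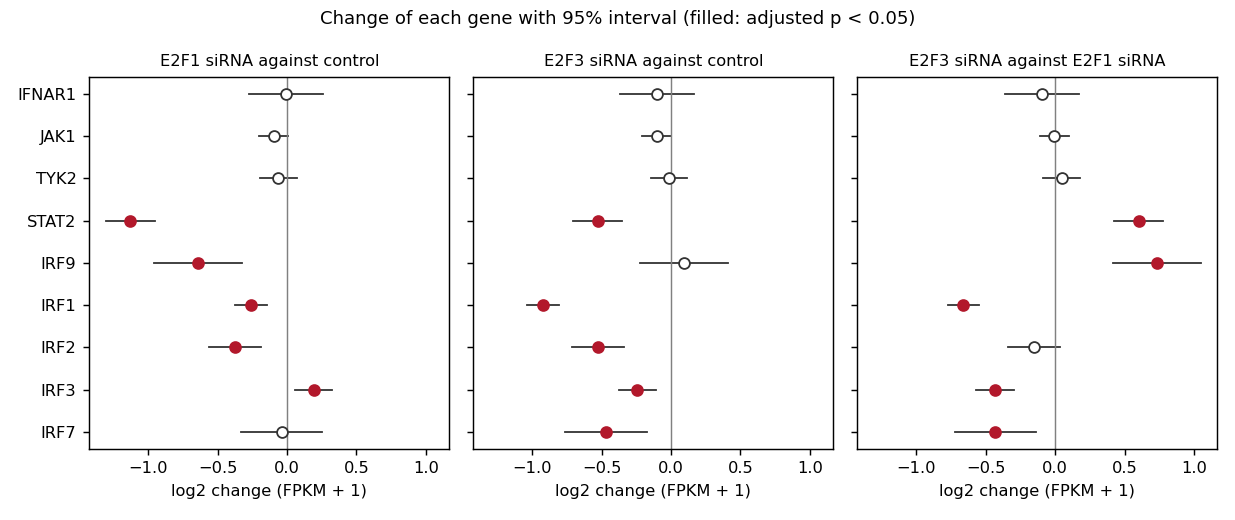
Change of each gene on the log2(FPKM + 1) scale in the 3 comparisons, with 95% intervals from limma as horizontal lines, and filled points for adjusted p under 0.05. STAT2 and IRF9 are the genes most lowered by E2F1 siRNA and IRF1 is the gene most lowered by E2F3 siRNA. The intervals of IFNAR1, JAK1 and TYK2 include 0 in all 3 panels.

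The promoters of the factors that moved are shown first, because STAT2, IRF9 and IRF1 are themselves known targets of interferon signalling, and that of TYK2 is set beside them as a gene that passed no test. RefSeq promoters (GRCh38.p14, 250 bases before to 50 bases after a start site) matched 6 of the 9 genes. IRF2, IRF3 and IRF7 had none. Both strands were searched for 4 sets of letters: an ISRE core (GAAA, any 2 bases, then GAAA), the gamma-activated sequence GAS (TTCNNNGAA), an E2F element (TTTGGCGC, TTTCGCGC, TTTCCCGC or TTTGCCGC) and the CCAAT box (CCAAT). Capitals mark every match, and no match overlapped one of another set. The windows lie at chr12:56360058-56360357 on the minus strand for STAT2, chr5:132490724-132491023 on the minus strand for IRF1, chr14:24161015-24161314 on the plus strand for IRF9 and chr19:10380523-10380822 on the minus strand for TYK2, and each is printed 5′ to 3′ along its gene.
STAT2: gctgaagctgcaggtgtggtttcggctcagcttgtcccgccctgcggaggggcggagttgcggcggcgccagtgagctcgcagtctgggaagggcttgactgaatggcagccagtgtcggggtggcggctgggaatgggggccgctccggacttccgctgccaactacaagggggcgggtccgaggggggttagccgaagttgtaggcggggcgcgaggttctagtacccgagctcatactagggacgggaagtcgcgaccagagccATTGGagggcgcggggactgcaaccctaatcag
IRF1: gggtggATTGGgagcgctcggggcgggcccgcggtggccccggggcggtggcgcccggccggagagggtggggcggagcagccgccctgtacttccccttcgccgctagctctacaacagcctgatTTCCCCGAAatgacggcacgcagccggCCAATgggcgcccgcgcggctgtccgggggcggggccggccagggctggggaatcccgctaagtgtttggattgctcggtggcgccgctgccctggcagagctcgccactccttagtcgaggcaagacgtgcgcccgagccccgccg
IRF9: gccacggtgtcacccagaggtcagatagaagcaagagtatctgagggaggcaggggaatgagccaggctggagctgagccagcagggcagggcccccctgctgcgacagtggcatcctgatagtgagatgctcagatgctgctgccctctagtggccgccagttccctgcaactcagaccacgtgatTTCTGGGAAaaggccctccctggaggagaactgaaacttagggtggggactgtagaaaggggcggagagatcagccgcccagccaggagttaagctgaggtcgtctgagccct
TYK2: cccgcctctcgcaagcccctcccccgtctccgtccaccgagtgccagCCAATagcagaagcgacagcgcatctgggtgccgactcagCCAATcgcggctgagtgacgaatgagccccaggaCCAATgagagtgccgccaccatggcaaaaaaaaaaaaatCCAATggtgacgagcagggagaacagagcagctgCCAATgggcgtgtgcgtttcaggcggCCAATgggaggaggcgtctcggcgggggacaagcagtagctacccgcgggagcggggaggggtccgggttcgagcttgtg
IRF1 and IRF9 each held 1 GAS match, from -124 to -116 and from -63 to -55 relative to the start site, counted as 0, and 7.66% of the 35116 RefSeq promoters of this length hold such letters. None of the 9 windows of these 6 genes held the ISRE core (3.57% of all promoters) or the E2F letters (3.31%). The RefSeq start site used for IRF9 (24161265) lies inside the GENCODE 29 gene, which starts at 24161053. Sequence upstream of that GENCODE start was therefore hardly searched, and absence of letters here does not extend to it. TYK2 held 6 CCAAT boxes, all on its own strand and between -203 and -26, IRF1 held 2 and STAT2 held 1. The windows of IRF9 held none, nor did those of JAK1 and IFNAR1, which like TYK2 passed no test against control. Of all promoters, 34.6% held at least 1. These are matches of letters in a window and no measurement of binding.

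The receptor chain and both kinases passed no test against control. IFNAR1 (ENSG00000142166.12, chr21:33324477-33359862) was at 21.14, 19.71 and 19.63 FPKM in control, 19.18, 20.53 and 20.41 with E2F1 siRNA, and 21.27, 14.69 and 20.92 with E2F3 siRNA. The groups overlapped, and E2F3 siRNA replicate 2 was the lowest of all 9 libraries. The log2 change was -0.01 after E2F1 siRNA (95% interval -0.27 to 0.26; limma adjusted p = 0.966) and -0.10 after E2F3 siRNA (-0.37 to 0.16; adjusted p = 0.533), and without that library the second value was 0.06. JAK1 (ENSG00000162434.11, chr1:64833229-64966504), the kinase shared by the receptors of all interferon types, was at 27.6, 26.87 and 26.82 FPKM in control, 26.18, 24.76 and 25.01 with E2F1 siRNA and 24.93, 24.61 and 25.97 with E2F3 siRNA. Every knockdown library was below every control library, yet the differences did not pass (log2 -0.09, 95% interval -0.20 to 0.01, adjusted p = 0.142, and log2 -0.10, interval -0.21 to 0.0019, adjusted p = 0.112), though JAK1 passed after E2F3 siRNA with RLE scaling (log2 -0.16, adjusted p = 0.0281). TYK2 (ENSG00000105397.13, chr19:10350529-10380676), which is held on IFNAR1, was at 41.73, 39.66 and 45.67 FPKM in control, 39.99, 40.01 and 41.28 with E2F1 siRNA and 44.1, 41.36 and 40.05 with E2F3 siRNA. Its groups overlapped, with log2 changes of -0.06 (95% interval -0.20 to 0.07) and -0.02 (-0.15 to 0.12).

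STAT2 had the largest change of the 9 genes. It lies at chr12:56341597-56360155 (ENSG00000170581.13) and encodes the STAT that gives ISGF3 its main activating region. STAT2 was at 25.58, 26.21 and 24.52 FPKM in control, 11.62, 10.81 and 10.78 with E2F1 siRNA, and 19.64, 15.64 and 16.93 with E2F3 siRNA. The 3 groups were apart from each other, with E2F1 siRNA lowest and E2F3 siRNA between. Its level after E2F1 siRNA was 43.5% of control (log2 -1.13, SE 0.08; limma adjusted p = 4.70e-06), the 199th largest change in size among the 13763 genes. After E2F3 siRNA it was at 68.4% of control (log2 -0.53, SE 0.08; adjusted p = 6.39e-04). The direct comparison put STAT2 higher after E2F3 siRNA than after E2F1 siRNA (log2 0.60, SE 0.08; adjusted p = 2.06e-04).

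IRF9, the DNA-binding partner of STAT2, fell after E2F1 siRNA and passed no test against control with E2F3 siRNA. IRF9 (ENSG00000213928.8, chr14:24161053-24166565) was at 12.22, 16.18 and 13.97 FPKM in control, 8.53, 9.59 and 7.83 with E2F1 siRNA, and 18.78, 14.07 and 12.79 with E2F3 siRNA. All libraries of E2F1 siRNA lay below all others, while E2F3 siRNA overlapped control and had the highest library. Its level with E2F1 siRNA was 61.2% of control (log2 -0.64, SE 0.14; limma adjusted p = 0.00534), and the change was 0.09 after E2F3 siRNA (95% interval -0.23 to 0.41; adjusted p = 0.643), and the direct comparison passed (log2 0.74, SE 0.14; adjusted p = 0.00212). Another gene on the same strand, AL136295.5, shares 48.4% of the exon bases of IRF9, so reads could be split between them. AL136295.5 was at a mean of 0.540 FPKM in control, 0.483 after E2F1 siRNA and 0.753 after E2F3 siRNA.

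IRF1 fell after both siRNAs, and further after E2F3 siRNA. IRF1 (ENSG00000125347.13, chr5:132481609-132490798) was at 47.0, 45.19 and 46.25 FPKM in control, 39.55, 37.98 and 37.48 with E2F1 siRNA, and 22.59, 25.26 and 23.8 with E2F3 siRNA. The 3 groups did not overlap, and the spread within each was small. IRF1 fell to 51.8% of control after E2F3 siRNA (log2 -0.92, SE 0.05; limma adjusted p = 1.28e-06) and to 83.1% after E2F1 siRNA (log2 -0.26, SE 0.05; adjusted p = 0.00275). In the direct comparison it was lower after E2F3 siRNA (log2 -0.66, SE 0.05; adjusted p = 5.85e-06). The genes C5orf56 and AC116366.3 on the opposite strand share 22.0% and 6.01% of its exon bases. Both were low, at group means of 2.17 to 2.51 and 1.74 to 2.34 FPKM.

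IRF2, the antagonist, fell after both siRNAs. IRF2 (ENSG00000168310.10, chr4:184387713-184474580) was at 31.91, 33.14 and 26.88 FPKM in control, 25.29, 21.49 and 23.32 with E2F1 siRNA, and 21.75, 20.44 and 20.42 with E2F3 siRNA. Control replicate 3 was the lowest of its group and still above all knockdown libraries, and the knockdown groups overlapped each other. With E2F1 siRNA the log2 change was -0.37 (SE 0.08; limma adjusted p = 0.00621), and it was -0.53 with E2F3 siRNA (SE 0.08; adjusted p = 9.50e-04). The difference between the siRNAs did not pass (log2 -0.15, 95% interval -0.34 to 0.04; adjusted p = 0.170).

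IRF3, the most abundant of the 9 transcripts and a factor made constitutively and activated by phosphorylation, moved in opposite directions. IRF3 (ENSG00000126456.15, chr19:49659569-49665875) was at 84.61, 70.88 and 77.96 FPKM in control, 87.51, 91.63 and 87.26 with E2F1 siRNA, and 63.72, 67.16 and 65.46 with E2F3 siRNA. No group overlapped another, although the control libraries spanned a wider range than either knockdown. The direct comparison gave the largest difference of this gene, lower after E2F3 siRNA than after E2F1 siRNA (log2 -0.43, SE 0.06; limma adjusted p = 2.99e-04). Against control IRF3 fell after E2F3 siRNA (log2 -0.24, SE 0.06; adjusted p = 0.0108) and rose after E2F1 siRNA (log2 0.19, SE 0.06; adjusted p = 0.0312). The rise was lost without control replicate 2 (log2 0.13) or replicate 3 (log2 0.19), without E2F1 siRNA replicate 1 (log2 0.20), replicate 2 (log2 0.17) or replicate 3 (log2 0.20), and without the filter on low values (adjusted p = 0.0778). BCL2L12, a gene on the opposite strand, shares 19.3% of the exon bases of IRF3, and the sources used here do not say whether counting used strand. BCL2L12 was at a mean of 60.0 FPKM in control, 66.1 after E2F1 siRNA (log2 0.13, adjusted p = 0.396) and 41.2 after E2F3 siRNA (log2 -0.54, adjusted p = 0.00486). It moved with IRF3 after E2F3 siRNA, and its part in the IRF3 values was not tested.

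IRF7, which amplifies interferon production once it has been induced, was the scarcest of the 9. IRF7 (ENSG00000185507.19, chr11:612553-615999) was at 2.57, 2.78 and 3.13 FPKM in control, 2.75, 3.27 and 2.21 with E2F1 siRNA, and 2.1, 1.59 and 1.61 with E2F3 siRNA. All libraries of E2F3 siRNA lay below all others, and E2F1 siRNA spanned the range of control. IRF7 fell after E2F3 siRNA (log2 -0.47, SE 0.13; limma adjusted p = 0.0185), a change the log2(FPKM + 1) scale understates at this level, while with E2F1 siRNA it did not pass (log2 -0.04, 95% interval -0.33 to 0.26). The call of this fall was lost without replicate 3 of control (log2 -0.41), without replicate 2 or 3 of E2F3 siRNA (log2 -0.43 in both cases), and without the filter on low values (adjusted p = 0.0656). In the direct comparison IRF7 was lower after E2F3 siRNA (log2 -0.43, adjusted p = 0.0227), a call also lost without that filter (adjusted p = 0.0759) and without E2F1 siRNA replicate 1 (log2 -0.43) or replicate 2 (log2 -0.33), or E2F3 siRNA replicate 2 (log2 -0.39) or replicate 3 (log2 -0.39).

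Set directly against each other, the knockdowns differed in 5 of the 9 genes, where 45.5% of all tested genes differed (23.5% higher and 22.1% lower with E2F3 siRNA). The split over all genes, 3234 higher and 3035 lower, turned to 2838 and 3453 with RLE scaling and to 2910 and 3368 with upper-quartile scaling. The same 5 were apart, where 53.8% of all genes were (27.9% higher and 25.9% lower). STAT2 and IRF9 were higher after E2F3 siRNA, and IRF1, IRF3 and IRF7 were lower. IFNAR1, JAK1, TYK2 and IRF2 did not pass, with log2 differences of -0.09, -0.01, 0.05 and -0.15.

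Ratios within a library show how partner transcripts stood to each other, and these 4 ratios were chosen after the values had been seen. STAT2 to IRF9, both parts of ISGF3, stood at 2.09, 1.62 and 1.76 in control, at 1.36, 1.13 and 1.38 after E2F1 siRNA and at 1.05, 1.11 and 1.32 after E2F3 siRNA. All 6 knockdown libraries were below all controls, by -0.50 and -0.65 on the log2 scale. IRF1 to IRF2, activator to antagonist, stood at 1.47, 1.36 and 1.72 in control, 1.56, 1.77 and 1.61 with E2F1 siRNA, and 1.04, 1.24 and 1.17 with E2F3 siRNA. Here the libraries of E2F3 siRNA lay below all others (log2 -0.40 against control), and E2F1 siRNA overlapped control. JAK1 to TYK2 was at 0.642 ± 0.0481 in control, 0.627 ± 0.0253 after E2F1 siRNA and 0.603 ± 0.0421 after E2F3 siRNA, with overlap throughout. The ratio of IRF3 to IRF7 was 27.8 ± 4.47, 33.1 ± 5.84 and 37.7 ± 6.46 in the same order, also with overlap. With 3 libraries against 3, a two-sided exact permutation test cannot give a p below 0.1, and it gave 0.1 for each comparison whose groups were apart (adjusted p = 0.3 over the 12 comparisons made).

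**Figure D3:**
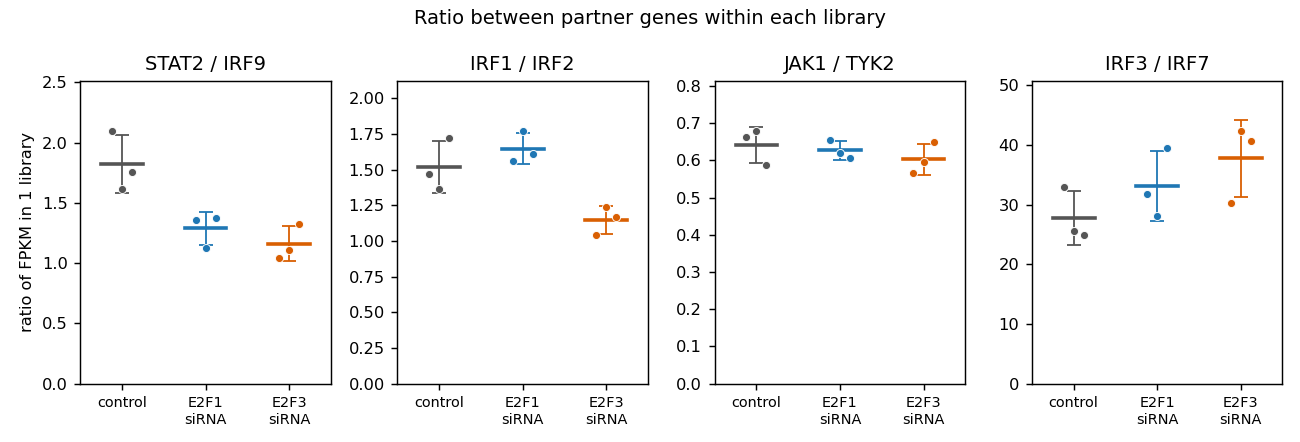
Ratio of the FPKM of 2 partner genes in each library, with points for libraries, thick bars for the group mean and thin bars for 1 SD, on linear axes from 0. STAT2 to IRF9 is lower than in control in all 6 knockdown libraries, IRF1 to IRF2 is lower in the 3 libraries of E2F3 siRNA, and the other ratios overlap between groups.

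The remaining genes of the pathway were grouped in lists by role, also chosen with earlier results of these data known. Of 21 interferon genes, 20 did not pass the filter, and the highest of those in any library was 0.58 FPKM, for IFNL1. IFNB1, the first type I interferon made by most cells, reached at most 0.13 FPKM. The exception was IFNE, an epithelial type I interferon, at 1.14, 1.17 and 1.14 FPKM in control, 0.78, 1.29 and 0.93 with E2F1 siRNA and 2.75, 1.53 and 1.93 with E2F3 siRNA (log2 0.49, limma adjusted p = 0.0346). Of the 5 other receptor chains, 1 fell and none rose after E2F1 siRNA, and 1 fell and 1 rose after E2F3 siRNA. Over all tested genes, 17.3% fell and 20.5% rose after E2F1 siRNA, and 16.5% fell and 21.1% rose after E2F3 siRNA. IFNAR2, the partner of IFNAR1, was at 15.79, 16.19 and 11.55 FPKM in control and fell to 8.96, 6.93 and 9.4 after E2F1 siRNA (log2 -0.71, adjusted p = 0.00236), and after E2F3 siRNA it was at 15.54, 14.4 and 13.85. IFNGR1, the ligand-binding chain for interferon gamma, fell from 51.5 ± 1.40 FPKM to 26.0 ± 1.03 after E2F3 siRNA (log2 -0.96, adjusted p = 7.33e-07) and was at 48.4 ± 1.72 after E2F1 siRNA. IFNGR2, its partner, rose from 35.8 to 40.6 FPKM after E2F3 siRNA (log2 0.18, adjusted p = 0.0312).

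Among 5 tested genes of other JAK kinases and STATs, 1 rose and 1 fell after E2F1 siRNA, where 37.8% of all genes were called. After E2F3 siRNA 1 rose and none fell, where 37.6% of all genes were called. STAT3, which signals for interleukin-6 and its relatives, rose from 29.6 to 37.9 FPKM after E2F1 siRNA (log2 0.35, limma adjusted p = 3.21e-04), and STAT6, the STAT of interleukin-4, fell from 39.6 to 32.3 FPKM (log2 -0.29, adjusted p = 0.00153). STAT5B rose after E2F3 siRNA from 19.5 to 23.9 FPKM (log2 0.29, adjusted p = 0.0475). Of the other interferon regulatory factors, IRF5 was at 5.34, 6.98 and 4.23 FPKM in control, E2F1 siRNA and E2F3 siRNA and did not pass against control. IRF2BP1, a co-repressor that binds IRF2, rose after both siRNAs, from 5.04 to 7.66 (log2 0.52) and 6.33 FPKM (log2 0.28), and IRF2BP2, of the same family, fell after E2F3 siRNA from 88.3 to 77.4 FPKM (log2 -0.19).

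Of 16 tested inhibitors of the pathway, 3 rose, 5 fell and 8 did not pass after E2F1 siRNA (37.8% of all genes were called), and 2 rose, 3 fell and 11 did not pass after E2F3 siRNA (37.6% of all genes). SOCS2, a suppressor of cytokine signalling, fell after both siRNAs, from 25.7 to 15.0 and 10.5 FPKM (log2 -0.74 and -1.23), and PTPN11, the phosphatase SHP2, fell from 59.3 to 45.3 after E2F1 siRNA (log2 -0.38) and rose to 90.0 after E2F3 siRNA (log2 0.59). PIAS3, an inhibitor of activated STATs, fell from 31.8 to 23.3 FPKM after E2F1 siRNA (log2 -0.43) and was at 29.2 after E2F3 siRNA. USP18, which blocks IFNAR2, rose from 13.9 to 16.9 FPKM after E2F1 siRNA (log2 0.27, limma adjusted p = 0.00825) and was at 13.4 after E2F3 siRNA (log2 -0.05). Among 18 kinases, sensors and adaptors upstream of IRF3 and IRF7, 4 rose and 5 fell after E2F1 siRNA. After E2F3 siRNA 4 rose and 3 fell. By direction, 20.5% of all tested genes rose and 17.3% fell after E2F1 siRNA, and 21.1% rose and 16.5% fell after E2F3 siRNA. DDX58, the RNA sensor RIG-I, fell from 36.1 to 20.9 and 12.5 FPKM (log2 -0.76 and -1.47), and its relative DHX58 (LGP2) fell from 6.23 to 3.31 FPKM after E2F3 siRNA (log2 -0.75) and was at 5.15 after E2F1 siRNA. IRAK1, a kinase of Toll-like receptor signalling, rose from 66.3 to 94.3 FPKM after E2F1 siRNA (log2 0.50) and was at 75.1 after E2F3 siRNA, and TBK1, a kinase of IRF3, rose from 18.4 to 24.0 FPKM after E2F1 siRNA (log2 0.37) and was at 20.2 after E2F3 siRNA (log2 0.13, adjusted p = 0.240).

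Downstream, of 37 tested target genes of ISGF3, 15 fell and 2 rose after E2F1 siRNA (median log2 -0.26). After E2F3 siRNA 19 fell and none rose (median -0.19). Of all tested genes, 17.3% fell and 20.5% rose after E2F1 siRNA (median 0.03), and 16.5% fell and 21.1% rose after E2F3 siRNA (median 0.04). Directly compared, 16 of the 37 were lower with E2F3 siRNA than with E2F1 siRNA, 5 were higher and 16 did not pass (median -0.12). In that comparison 22.1% of all tested genes were lower and 23.5% higher. OASL was at 110.0, 66.9 and 20.7 FPKM in control, E2F1 siRNA and E2F3 siRNA, IFIT1 at 65.1, 49.5 and 16.2, and IFIT2 at 50.9, 39.2 and 10.5, and all of these changes passed. These 3 antiviral genes, named for the smallest adjusted p of the list, were lowest after E2F3 siRNA. DTX3L, named after its values were seen as one that went the other way, was at 19.0, 9.75 and 18.1 FPKM in control, E2F1 siRNA and E2F3 siRNA (log2 0.83 in the direct comparison, limma adjusted p = 4.07e-06). Of 19 tested target genes of IRF1 and interferon gamma, 7 fell and 3 rose in either comparison with control (medians -0.02 and -0.08). The shares of all tested genes given above are the background for these counts as well. GBP1 and GBP3, guanylate-binding proteins, were lowest after E2F1 siRNA. GBP1 was at 9.90, 3.06 and 7.54 FPKM in control, E2F1 siRNA and E2F3 siRNA, and GBP3 at 15.3, 5.53 and 15.3. GBP2 and LAP3, named after their values were seen, went the other way. GBP2 rose from 8.95 to 15.2 FPKM after E2F3 siRNA (log2 0.71, limma adjusted p = 3.11e-04) and was at 9.98 after E2F1 siRNA. LAP3 rose after both siRNAs, from 14.9 to 23.1 and 20.6 FPKM (log2 0.60 and 0.44).

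**Figure D4:**
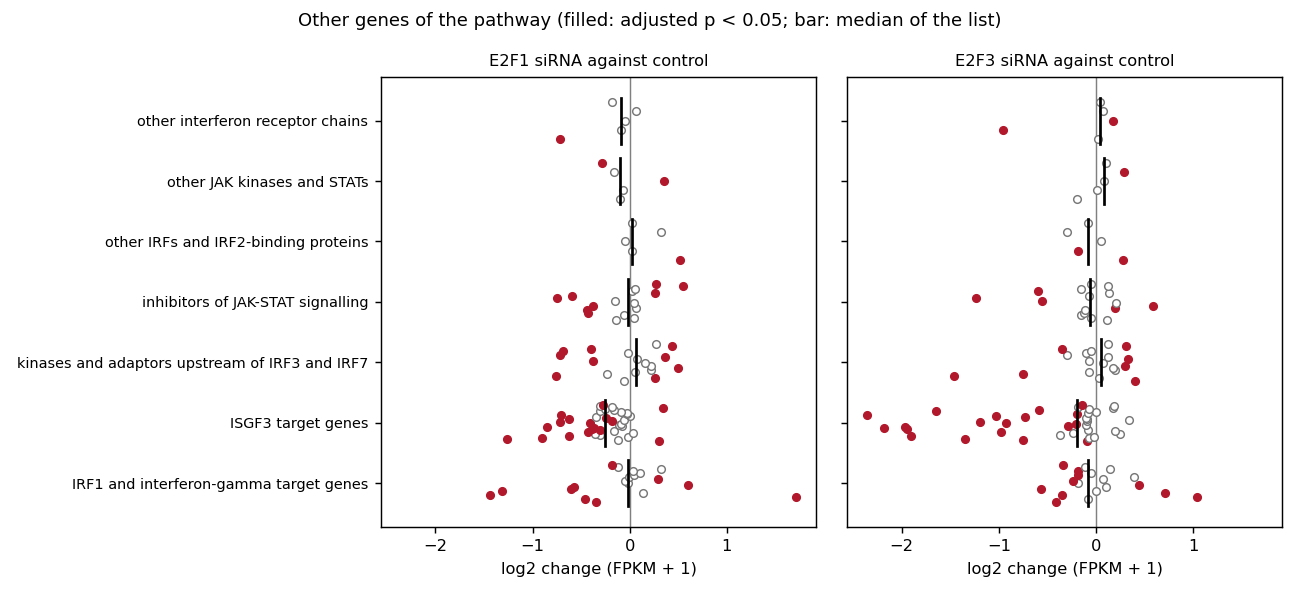
Change of each tested gene of 7 lists by role against control on the log2(FPKM + 1) scale, for E2F1 siRNA (left) and E2F3 siRNA (right), with filled points for adjusted p under 0.05 and a bar at the median of each list. In the list of 37 ISGF3 targets 15 genes are called lower on the left and 19 on the right, where 17.3% and 16.5% of all tested genes are. The inhibitors and the genes upstream of IRF3 and IRF7 hold called genes on both sides of 0.

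The genes whose pattern over the 9 libraries was most like each of the changed members were picked by Pearson correlation of log2(FPKM + 1) among 9376 protein-coding genes. For STAT2 they were CD2AP (r = 0.995), which went from 31.3 to 14.4 FPKM after E2F1 siRNA and 21.9 after E2F3 siRNA, and STX3 (r = 0.993). For IRF1 they were PTGES (r = 0.997), which went from 90.0 to 68.3 and 32.4 FPKM, and PI4K2A (r = 0.996). IRF2 was followed most closely by IREB2 (r = 0.980) and HIGD1A (r = 0.976), IRF3 by TAF6 (r = 0.983) and E2F4 (r = 0.982), IRF7 by PHKG2 (r = 0.983) and ZBTB21 (r = 0.959), and IRF9 by ANGEL1 (r = 0.978) and COL12A1 (r = 0.972). The 9 libraries form 3 groups and share their controls, and many genes reached such values: 297 genes had r above 0.9 with STAT2 and 454 with IRF1. Among the members, IRF2 and JAK1 were the most alike (r = 0.853), followed by IRF1 and IRF7 (r = 0.813), and IRF3 and IRF9 were the most opposed (r = -0.827).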

How the data were processed

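The 9 RNA libraries of HK1 cells, 3 per siRNA, were grouped by their titles. The authors deposited FPKM per gene for each library, given to 2 decimals, per the file headers. The submitters' processing notes name HISAT2, TopHat, HTSeq, DESeq, Trimmomatic and the build GRCh38. What each did, in which version and order, and whether counting used strand, is not given in the sources used here. Each file held 59107 gene entries and 12 lines of text, which were left out. Of 58336 Ensembl genes, 56888 matched GENCODE 29 exactly and 1328 after dropping the version. Gene coordinates are those of GENCODE 29.

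Tests used log2(FPKM + 1), and a gene was tested where 3 or more libraries reached 1 FPKM. A limma model (limma 3.58.1, R 4.3.3, with trend) over all 9 libraries gave the 3 comparisons, with two-sided p-values adjusted by Benjamini and Hochberg's method over the 13763 genes and called under 0.05. It was also run on simulated data with independent noise and few changed genes. That setting differs from these data, so the run does not check the calls made here. Ratios were tested by exact permutation. The largest share of identical values between libraries was 0.456%. Relative depth was read from genes with 1 exon (900 to 1500 bp). Of 2757 such genes, 266 to 317 per library had nonzero values low enough to use. These low values lay within 0.25 of a whole step in 92.9 to 96.7% of cases. The step was chosen to make this share as large as possible, so the share does not check the depth.

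The members and gene lists were chosen with earlier results of these data known. Named genes are the 9 members, E2F1 and E2F3, the 3 called genes with the smallest adjusted p of each list, genes of at least 5 FPKM named for their role, and the 2 genes of at least 5 FPKM most correlated with each called member. IFNB1, IFNL1, DTX3L, GBP2, LAP3 and the genes that overlap a member were named after their values had been seen. A few genes that this rule names are not reported here. Alternatives were RLE and upper-quartile scaling, no filter or 5 FPKM, only the libraries compared, a constant of 0.1, a replicate block, a threshold of 0.01, and leaving out each library.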

Additional observations from a re-analysis of the deposited data

How the results depend on the processing

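With an adjusted p under 0.01 as the threshold, 3 of the 9 genes were called after E2F3 siRNA in place of 5, since IRF3 and IRF7 lay between the thresholds. Under every other alternative the number called stayed within 1.5 times of 5 in all 3 comparisons. Leaving out 1 library gave 4 to 5 genes called in each comparison. JAK1 was the only gene that gained a call, with RLE scaling. With a filter of 5 FPKM, IRF7 was not tested. STAT2, IRF1, IRF2 and IRF9 kept their calls against control in every alternative run.

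Values of genes that had not passed changed sign as follows, and the cause was not tested. IFNAR1 after E2F1 siRNA was at 0.014 with upper-quartile scaling and ranged from -0.026 to 0.025 when a library was left out. Leaving out a library moved IFNAR1 from -0.19 to 0.063 after E2F3 siRNA and from -0.18 to 0.071 between the siRNAs, IRF7 after E2F1 siRNA from -0.14 to 0.067, IRF9 after E2F3 siRNA from -0.061 to 0.20, TYK2 after E2F3 siRNA from -0.061 to 0.038 and JAK1 between the siRNAs from -0.030 to 0.015.

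Samples share replicate numbers across groups, but the labels do not say what a number stands for. Deviations of same-numbered libraries from their group means correlated at -0.105 to 0.112, and those of different number at -0.0768 to 0.0694. Same-numbered values were all negative between control and either knockdown. Between the knockdowns they were positive (0.112, 0.0292 and 0.0516), and those of different number there were at most 0.0225. What this pattern stands for was not tested. All values were small, so the numbers were not used as pairs in the main model. With the replicate number as a block, 4, 5 and 5 genes were called for E2F1 siRNA, E2F3 siRNA and the direct comparison, and IRF3 after E2F1 siRNA had an adjusted p of 0.0577. The block changed no other call among the 9 genes. The absolute depth is unknown, so no counting interval is given for IRF7, the lowest of them.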
